A study of Solanum lycopersicum with 27 samples.

Results

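The comparison is between mature leaves of tomato (Solanum lycopersicum, wild type, cultivar MoneyMaker) that carried the control label on the last 2 collection days, day 8 and day 10. It was defined by the labels alone and holds 4 of the 27 libraries of the series, replicates 1 and 2 of day 8 and replicates 2 and 3 of day 10. It measures what still changed in this arm after the larger step between days 5 and 8.

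The series followed tomato leaves during a progressive water deficit by sequencing polyadenylated RNA. Plants were 50 days old at the start and grew in pots of 3 L with a light period of 16 h and a dark period of 8 h. Control plants were watered on alternate days up to soil capacity, and deficit plants received no water. The day counts from the start of that treatment, so that every group of a given day has the same treatment duration. Each mature library was made from a single leaflet, and each young leaf library of day 10 from a whole developing leaf. The young libraries are used below only for levels and in alternative fits that include every group. Other groups used here are mature leaves labelled control at days 4 and 5 (3 libraries each) and mature leaves labelled deficit at days 4 and 5 (3 each), day 8 (2) and day 10 (3). The labels do not say whether the libraries of a group came from separate plants, so p-values measure only the spread between these libraries, which may be technical. Each day was collected once, and a collection batch cannot be told apart from the day.

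A mature leaflet is where most photosynthesis takes place and from where sugar is exported to growing organs. In leaves that lose water, abscisic acid accumulates, stomata close and many transcripts change, while watered leaves are known to vary with the light cycle and with age. The identifiers in the table of counts are not paired with gene names in the sources used here, and none of the 34688 loci matched the reference gene table of 41476 genes. No locus could therefore be given a name or a role, and the leaf label could not be checked against marker genes. Loci are described by their levels, their size of change, their behaviour in other libraries and the chromosome that the identifier encodes. Identifiers are printed for 2 loci that rose and 2 that fell.

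The 4 libraries held 16152430 and 18098044 counts at day 8 and 18743082 and 18477813 counts at day 10, and between 20550 and 20644 loci had at least 1 count. The replicates of day 8 correlated at r = 0.993 and those of day 10 at r = 0.994 on the log2 CPM scale (CPM are counts scaled to the size of the library), against 0.974 to 0.978 for the 4 pairs from different days. Over 18254 loci, the mean profile of day 8 correlated with that of day 4 of the same arm at r = 0.876, and that of day 10 at r = 0.883. The mature day 8 libraries labelled deficit correlated with the same day 4 control profile at r = 0.984. At day 8 the libraries labelled control thus stood further from the day 4 control profile than those labelled deficit. The files hold no independent check of which plants were watered, and an exchange of labels in some groups was not tested, so that control and deficit name labels throughout. One library outside the comparison stood apart from its label: replicate 1 of the mature day 10 deficit group correlated at r = 0.994 and 0.993 with the day 10 control libraries and at r = 0.869 and 0.870 with the other libraries of its own group. Comparisons of the deficit arm and of both arms are therefore given with and without it.

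Between days 8 and 10, 7459 of 18254 loci changed in mature leaf labelled control, which is 40.9% of those tested. Of these, 3660 rose and 3799 fell, or 20.1% and 20.8% of the loci tested (edgeR's quasi-likelihood test, Benjamini-Hochberg adjusted p below 0.05, fitted on the 10 mature libraries labelled control). Most changes were small. A change of at least 2-fold was called at 1021 loci (5.59%), 601 higher (3.29%) and 420 lower (2.3%). The median log2 fold change was 0.58 among the loci that rose and -0.48 among those that fell, against -0.03 over all loci tested. The number of calls dropped to 4844 without replicate 2 of day 10. Bulk leaflets do not allow fewer cells of a type to be told apart from less RNA per cell.

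The 2 preceding steps of the same arm were measured in the same fit. Between days 5 and 8, 11310 loci were called (62%), with 29.7% of all loci higher and 32.3% lower. Of these, 3565 changed at least 2-fold (19.5%), 1329 of them higher (7.28%) and 2236 lower (12.2%). Between days 4 and 5, 6747 loci were called (37%) and 1440 changed at least 2-fold (7.89%), of which 698 were higher (3.82%) and 742 lower (4.06%). The median absolute log2 fold change was 0.23 between days 4 and 5, 0.44 between days 5 and 8, and 0.31 between days 8 and 10. Days 4 and 5 have 3 libraries each and days 8 and 10 have 2, so that these medians rest on groups of unequal size. The step between days 5 and 8 shares its day 8 libraries with the one described here.

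**Figure D1:**
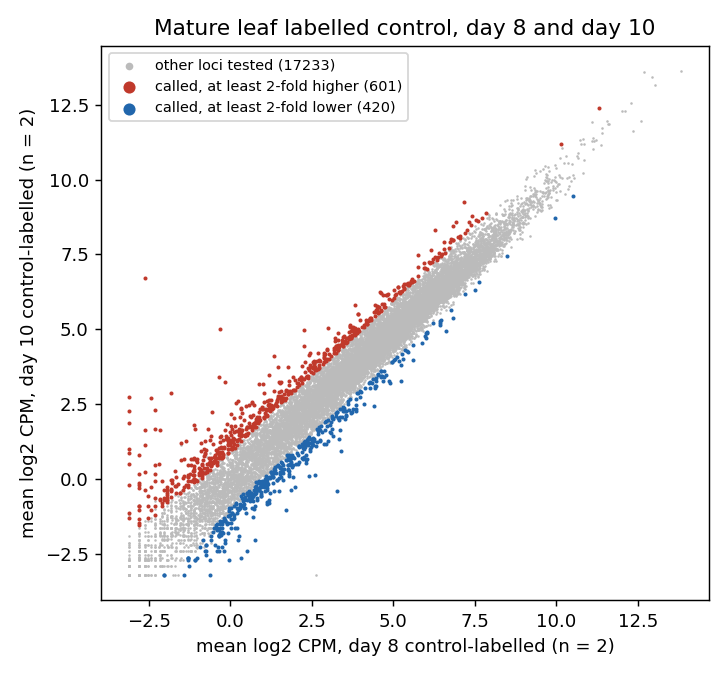
Each point is 1 of 18254 loci, with its mean log2 CPM (2 counts added) in the 2 day 8 libraries on the horizontal axis and in the 2 day 10 libraries on the vertical axis, both labelled control. The 601 loci called at least 2-fold higher (red) and the 420 called at least 2-fold lower (blue) lie mostly at low levels, and a few red points near the left edge had almost no counts at day 8.

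The difference between the days was compared with that between replicates at loci with a mean log2 CPM of at least 3. Over these 11890 loci the median absolute log2 difference was 0.111 between the day 8 replicates and 0.0825 between the day 10 replicates. The 4 pairs of libraries from different days gave 0.259 to 0.304. The day 8 and day 10 CPM did not overlap at 72.4% of all loci tested, with day 10 higher at 32.4% and lower at 40%. All 3799 loci that fell and 3656 of the 3660 that rose were among them. Calls and overlap were read from the same day 8 and day 10 libraries, so this is no separate check of the calls. With so few libraries per day, many loci would not overlap even without a change, and that share was not estimated.

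Calls depended on the number of counts. Among the 1928 loci with a mean log2 CPM under 0, 13% were called, against 56.3% of the 3117 loci between 6 and 8. Changes of at least 2-fold were called at 12.9% of the former and 1.51% of the latter. The 601 loci that rose at least 2-fold had a median mean log2 CPM of 1.67, and the 420 that fell had 0.96, against 4.16 over all loci tested. In counts, the 601 loci took 1.14% and 1.19% of the day 8 libraries and 2.69% and 2.55% of the day 10 libraries. The 420 loci took 0.72% and 0.677% at day 8 and 0.305% and 0.3% at day 10. The share of counts from all loci that rose went from 23.6% and 24.1% at day 8 to 34.5% and 33.6% at day 10, while that from all loci that fell went from 30.8% and 30.2% to 21.7% and 22.1%. The large changes therefore moved a small part of the library, and the many small changes a larger part.

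**Figure D2:**
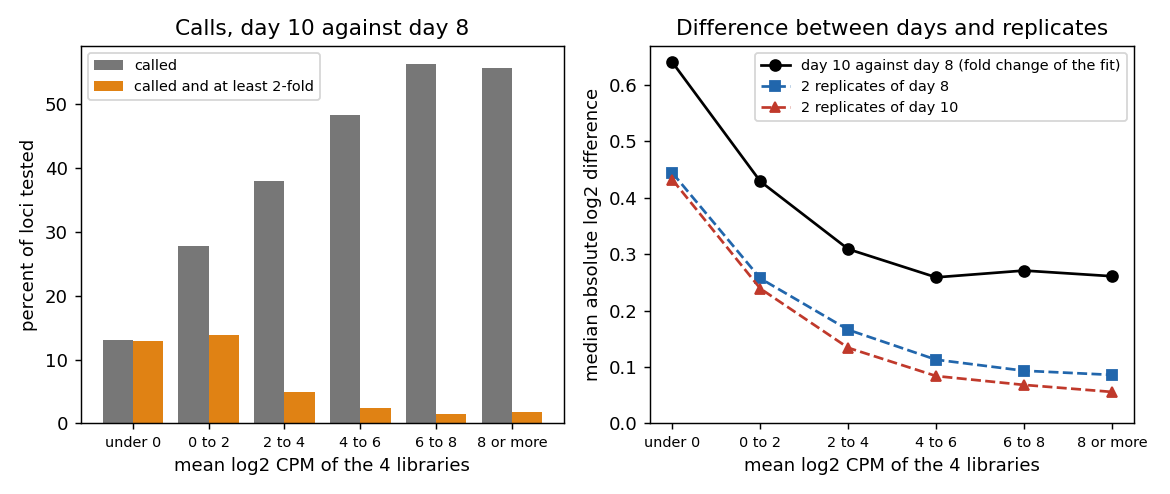
The left panel shows, by mean log2 CPM of the 4 libraries, the percent of loci tested that were called and the percent called with a change of at least 2-fold. The right panel shows the median absolute log2 difference between day 10 and day 8 and between the 2 replicates of each day. Called loci make up 13% of the lowest class, 56.3% of the class from 6 to 8 and 55.7% of the highest, while calls of at least 2-fold make up 12.9%, 1.51% and 1.77%, with the highest share, 13.9%, in the class from 0 to 2, and the difference between days lies above that between replicates in every class.

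The locus with the largest rise among those with a mean log2 CPM of at least 3 was Solyc06g009140.3, on chromosome 6 as its identifier encodes. It had 4.29 and 5.23 CPM in the day 8 libraries and 31.3 and 31.6 CPM in the day 10 libraries. The days did not overlap, which was a condition for naming a locus, and the replicates of day 10 differed by less than 1 CPM. The log2 fold change was 2.74 (SE 0.17, adjusted p = 2.99e-09, edgeR's quasi-likelihood test). Earlier in the same arm the locus was higher. Its mean was 79.1 ± 12.8 CPM (SD, n = 3) on day 4, and on day 5 it was 36.8 ± 3.67 CPM (SD, n = 3). Day 8 was therefore its lowest day, a position favoured by choosing a large rise from day 8. Its day 10 level was close to that of day 5 and under that of day 4. Mature leaf labelled deficit went from 69.5 ± 7.28 CPM (SD, n = 3) on day 4 to 62.9 ± 8.58 CPM (SD, n = 3) on day 5, and its day 8 libraries had 32.6 and 27.9 CPM. Its day 10 deficit libraries had 38.4, 82.9 and 72.4 CPM, the first of these being replicate 1. It rose there as well, by 1.10 on the log2 scale (SE 0.24, adjusted p = 0.00631) or, leaving replicate 1 out, by 1.36 (SE 0.15, adjusted p = 5.37e-07).

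Solyc03g118810.1, on chromosome 3 by its identifier, had 4.78 and 4.50 CPM at day 8 and 22.5 and 20.4 CPM at day 10. The log2 fold change was 2.23 (SE 0.20, adjusted p = 1.71e-07, quasi-likelihood test). Unlike the previous locus, it stood at day 10 above every earlier library of its arm, whose mean was 9.25 ± 1.55 CPM (SD, n = 3) on day 4 and, on day 5, 7.02 ± 2.01 CPM (SD, n = 3). Mature deficit libraries had 8.78 and 8.23 CPM at day 8, and 22.9, 11.4 and 11.3 CPM at day 10. The high value among the latter was that of replicate 1. The change within the deficit arm was not called. It was 0.85 on the log2 scale (SE 0.28, adjusted p = 0.0545), or 0.41 (SE 0.18, adjusted p = 0.109) without replicate 1.

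The largest fall under the same criteria was that of Solyc03g078230.3, on chromosome 3 by its identifier. It had 20.7 and 21.5 CPM at day 8 and 5.53 and 4.99 CPM at day 10. On the log2 scale the change was -1.97 (SE 0.18, adjusted p = 6.47e-08, quasi-likelihood test). The 2 day 8 libraries were the highest of all 27, a position favoured by choosing a large fall from day 8. In the same arm the mean was 9.23 ± 2.36 CPM (SD, n = 3) on day 4 and, on day 5, 9.09 ± 0.465 CPM (SD, n = 3). All mature deficit libraries lay between 4.18 and 8.55 CPM. Within the deficit arm its log2 change between days 8 and 10 was -0.21 (SE 0.18, adjusted p = 0.48), or -0.18 (SE 0.20, adjusted p = 0.564) when replicate 1 of day 10 was left out.

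Solyc10g049580.2, on chromosome 10 by its identifier, had 40.3 and 35.3 CPM at day 8 and 11.3 and 8.14 CPM at day 10. The log2 fold change was -1.93 (SE 0.36, adjusted p = 0.00431, quasi-likelihood test). Here too the day 8 libraries were the highest of the series, as the choice of the locus favours. The young deficit libraries came next, with 32.6, 19.5 and 18.7 CPM. Its day 4 mean was 7.90 ± 3.35 CPM (SD, n = 3) and its day 5 mean 11.9 ± 2.78 CPM (SD, n = 3), both near the day 10 level. In the deficit arm its log2 change was 0.02 (SE 0.36, adjusted p = 0.978), or -0.44 (SE 0.38, adjusted p = 0.459) when replicate 1 was left out.

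**Figure D3:**
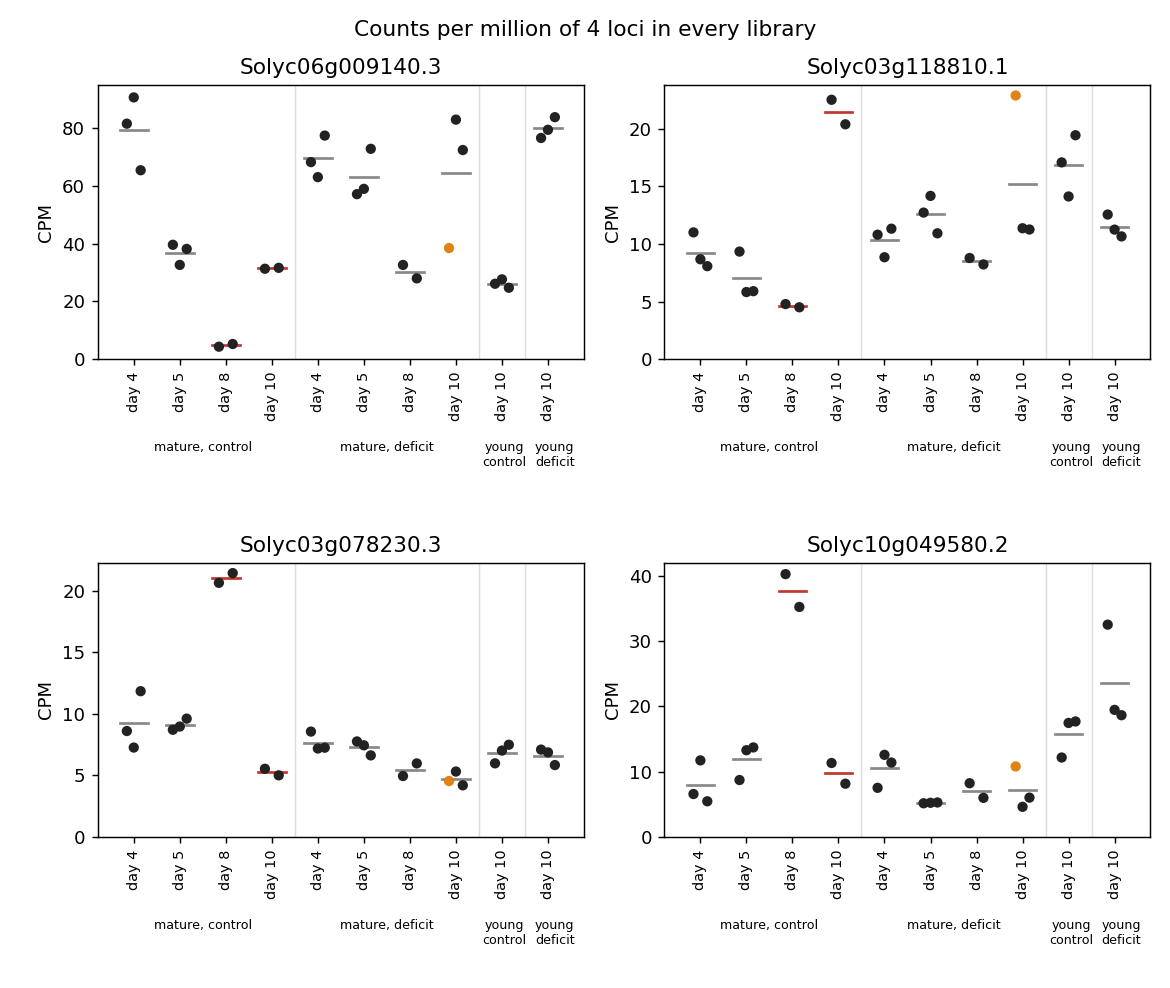
CPM of 4 loci in each of the 27 libraries, with 1 point per library and a bar at the group mean, red for the day 8 and day 10 groups labelled control. The orange point is replicate 1 of the mature day 10 deficit group, which at Solyc03g118810.1 lay at 22.9 CPM beside the day 10 control libraries. The day 8 control libraries are the lowest in the upper panels and the highest in the lower panels, which the choice of loci favours.

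The larger set of changed loci was then followed through the other libraries. At the 601 loci that rose at least 2-fold, the median log2 level relative to the day 8 mean was 1.20 and 1.23 in the day 10 libraries. In the same arm it was 0.91 to 1.17 in the 3 libraries of day 4 and 0.68 to 0.85 in those of day 5. Mature libraries labelled deficit gave 0.84 to 1.17 at days 4 and 5 and 1.07 and 1.09 at day 8. At day 10 they gave 1.17 in replicate 1 and 1.22 and 1.40 in the others. Young leaves gave 0.78 to 0.95 where labelled control and 1.09 to 1.26 where labelled deficit. The day 8 control libraries were thus lower at the median of these loci than each of the other 25 libraries, a position that the choice of loci favours.

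The 420 loci that fell at least 2-fold were high in the day 8 control libraries. Their median log2 level relative to the day 8 mean was -1.23 and -1.27 in the day 10 libraries, -1 to -0.67 at day 4 and -0.59 to -0.53 at day 5. The mature deficit libraries other than replicate 1 of day 10 ranged from -1.22 to -0.52, replicate 1 was at -1.14, and the young libraries ranged from -0.83 to -0.71 where labelled control and from -0.73 to -0.62 where labelled deficit. Young deficit and young control libraries thus overlapped at these loci. At the rises, each young deficit library lay further from day 8 than each young control library. Again the day 8 control libraries lay on one side of all others at the median. The loci were chosen by their difference between days 8 and 10, which by itself favours an outlying day 8 level. These levels are therefore a description and carry no test.

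**Figure D4:**
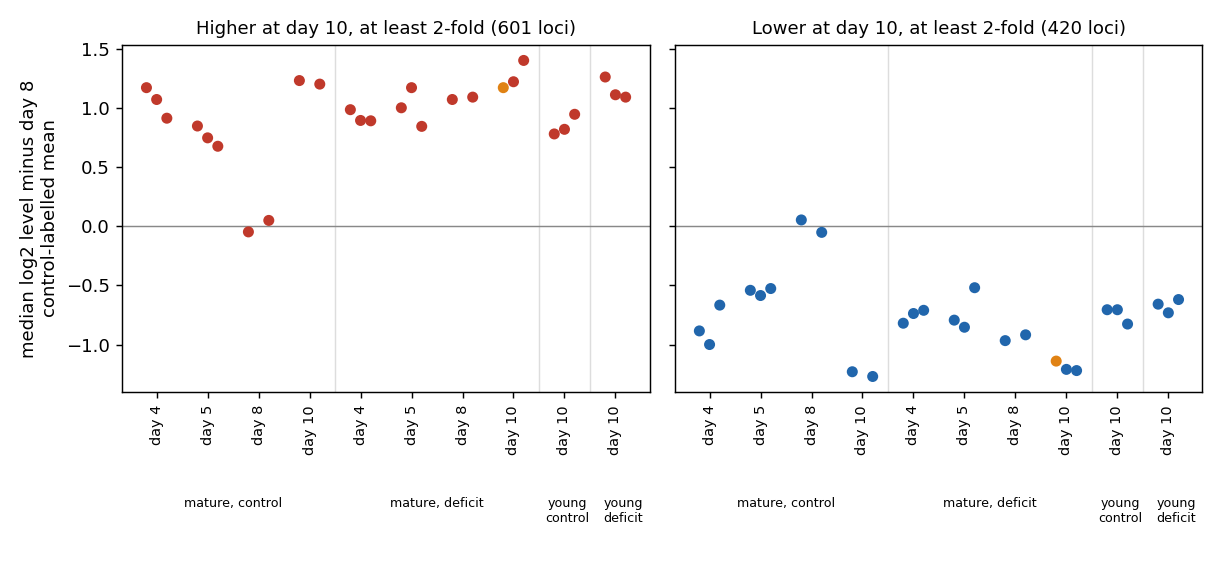
Median log2 level, relative to the mean of the day 8 control libraries, of the 601 loci at least 2-fold higher at day 10 (left) and the 420 at least 2-fold lower (right), with 1 point per library. The orange point is replicate 1 of the mature day 10 deficit group, at 1.17 and -1.14. All libraries other than the day 8 control libraries lie on the day 10 side of 0, which the choice of loci favours.

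A median hides the variety of single loci, and the day 10 mean of each locus was therefore placed against the 6 control libraries of days 4 and 5. Of the 601 loci that rose, 163 (27.1%) were below that range at day 8 and inside it at day 10. Another 144 (24%) were below it on both days, and 99 (16.5%) went from below it to above it. Day 10 was above the range at 90 loci (15%) that had been inside it at day 8 and at 93 loci (15.5%) already above it. The remaining 12 were inside on both days. In all, 282 of the 601 loci (46.9%) stood above every day 4 and day 5 library at day 10, against 30.4% of all loci tested, in a list chosen for being higher at day 10 than at day 8. Of the 420 loci that fell, 140 (33.3%) went from above the range to inside it, 42 (10%) from above to below, and 53 (12.6%) from inside to below. A further 106 (25.2%) were below it on both days, 58 (13.8%) above it on both, and 21 inside it on both. At day 10, 201 of the 420 (47.9%) stood below the range, against 31.6% of all loci tested. Over all loci tested, 24% were below the range on both days, 22.3% above it on both and 16.1% inside it on both.

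The step between days 4 and 5 shares no library with that between days 8 and 10 and was set beside it. Of the 3660 loci that rose late, 1038 had fallen between days 4 and 5, which is 28.4% of the former and 30.4% of all 3419 that fell early, while 546 had risen (14.9% and 16.4% of the 3328 that rose early). Of the 3799 that fell late, 1186 had risen early (31.2% and 35.6%) and 393 had fallen (10.3% and 11.5%). Over all loci tested, 18.2% rose and 18.7% fell between days 4 and 5. Opposite directions were thus the more frequent for both lists. The medians of the 601 and 420 loci were -0.25 and 0.23 between days 4 and 5. Between days 5 and 8, a step that shares the day 8 libraries, they were -0.81 and 0.58.

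A small group of loci went from near absence to clear presence. At 11 loci each day 8 library had at most 3 counts, which correspond to 0.167 to 0.184 CPM, and each day 10 library had at least 30. The reverse held at 1 locus. Of the 11, 10 were called, against 40.9% of all loci tested, but the 11 were chosen by these same 4 libraries. The summed level of the 11 was 0.0613 and 0.667 CPM at day 8 and 124.6 and 162.4 CPM at day 10. A single locus made up 74.3% of the sum at day 10. In the control arm the sum was 4.63 to 6.47 CPM at day 4 and 6.16 to 7.05 CPM at day 5. Libraries labelled deficit were high at day 4, with 145.7 to 165.5 CPM, and at day 5, with 132.6 to 161.7 CPM, and low at day 8, with 8.47 and 10.9 CPM. At day 10 the mature deficit libraries had 136.4, 109.0 and 102.2 CPM and the young libraries 89.0 to 109.6 CPM across both labels. The sum was therefore high in all libraries of day 10, whatever their label or leaf age, and low at day 8 in both arms. In the control arm these levels follow from the choice of loci. The highest locus alone held 140.4 of 165.5 CPM in replicate 1 of day 4 deficit and 87.9 of 109.0 CPM in replicate 2 of mature day 10 deficit. The day 8 deficit libraries had over 3 counts at 5 and 6 of the 11 loci, and the day 10 libraries at 8 to 11. Within the deficit arm, 6 of the 11 were called higher at day 10 than at day 8, with all libraries and without replicate 1, where 6.61% and 10.5% of all loci tested were called higher.

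Changed loci were spread over the chromosomes that the identifiers encode. Loci called at least 2-fold made up 4.35% of those tested on chromosome 12, the lowest share, and 6.42% on chromosome 6, the highest among the 12 chromosomes, around the 5.59% of all loci. At this size rises outnumbered falls on each of the 12. Over calls of any size, the share called was 38.9% to 42.8% on the 12 chromosomes. On sequence not placed on a chromosome, 8 of 76 loci tested were called (10.5%). All 8 fell, 7 of them at least 2-fold (9.21%, against 2.3% of all loci). Each of these 7 had a mean log2 CPM under 2, where large falls were called more often than over all loci. Falls of at least 2-fold were called at 112 of the 1928 loci under 0 and at 182 of the 2645 from 0 to 2. Whether the share on unplaced sequence differs from that of other loci at such levels was not tested. Among loci adjacent in the order of identifiers, 15% of those that rose at least 2-fold had a neighbour that did the same, against 6.43% of all loci tested. For falls the shares were 11.7% and 4.51%. Runs of 3 adjacent loci, the longest found, numbered 4 for rises and 1 for falls. The run that fell lies on chromosome 1, with log2 fold changes of -1.68 to -1.30 and a summed level of 41.9 and 36.1 CPM at day 8 and 13.1 and 12.3 CPM at day 10. One of the runs that rose lies on chromosome 3, with log2 fold changes of 1.10 to 1.34 and a summed level of 6.01 and 6.11 CPM at day 8 and 14.1 and 13.9 CPM at day 10. That run had 33.2 to 57.0 CPM at days 4 and 5 of the control arm and 45.4 to 64.8 CPM in the mature deficit libraries, except replicate 1 of day 10, which had 13.4 CPM beside the day 10 control libraries. Its day 10 level was thus still far under that of the earlier days. How the counting treated reads shared between near-identical neighbours is not given in the sources used here, so the values of adjacent loci may not be independent.

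The deficit arm gives the same interval of days from other libraries. With all 21 mature libraries in the fit, 2558 of 18748 loci were called between days 8 and 10 (13.6%), 6.61% higher and 7.03% lower. Without replicate 1 of day 10 the number was 4283 of 18723 (22.9%), 10.5% higher and 12.4% lower. The 7459 calls of the control arm came from another fit, that of its own 10 libraries. In the fits used here for the deficit arm, the control arm had 3634 calls with all 21 libraries. It had 7757 without replicate 1 of the day 10 deficit group. A fit of only the 5 deficit libraries of days 8 and 10 called 1 locus (1450 at an unadjusted p below 0.05), and 3228 without replicate 1. Of the 601 loci that rose at least 2-fold in the control arm, 102 (17%) were called higher in the deficit arm and 26 (4.33%) lower. Without replicate 1 these were 150 (25%) and 46 (7.65%). Of the 420 that fell, 65 (15.5%) were called lower and 8 (1.9%) higher, or 106 (25.2%) and 20 (4.76%) without replicate 1. The loci of each list were thus called in the same direction more often than all loci were, and most of them were not called in that direction. The fit of only the 5 libraries tested 544 of the 601 and 352 of the 420, and called 1 and none of them in that direction. The same fit without replicate 1 tested 525 of the 601 and called 143 higher. It tested 338 of the 420 and called 100 lower. Each number is 23.8% of its full list, including loci not tested. Of all loci this fit tested, 7.86% were called higher and 10.5% lower. In the fit of all 21 mature libraries, the 601 and 420 loci had a median log2 fold change of 0.26 and -0.19 in the deficit arm. Over all loci tested in the control arm it was 0.05. Without replicate 1 these medians were 0.23 and -0.33, and 0.007 over all loci. In the control arm, where the loci were chosen, the 601 and 420 had 1.29 and -1.31. Leaving out 1 library of either deficit day moved the deficit number by over 1.5 times, to 855 without replicate 1 of day 8, 786 without replicate 2 of day 8, 4305 without replicate 2 of day 10 and 4017 without replicate 3 of day 10.

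**Figure D5:**
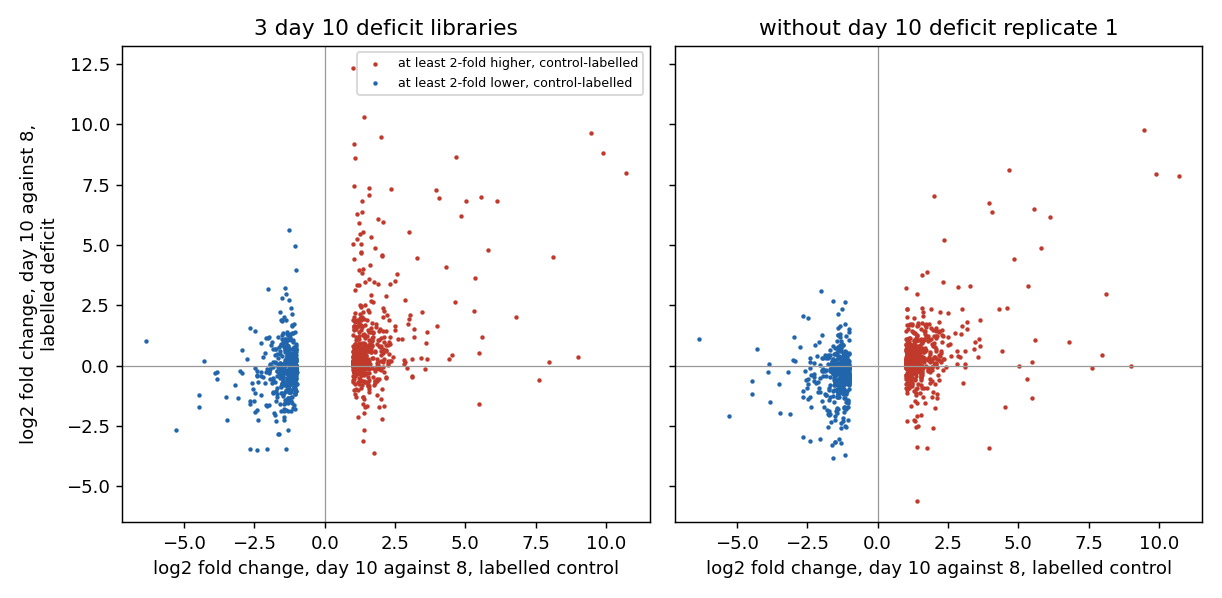
Log2 fold change between days 8 and 10 in mature leaf labelled control (horizontal) and labelled deficit (vertical) for the 601 loci at least 2-fold higher (red) and the 420 at least 2-fold lower (blue) in the control arm, with all 3 day 10 deficit libraries on the left and without replicate 1 on the right. The red points have a median of 0.26 and 0.23 on the vertical axis and the blue points -0.19 and -0.33, and a few red points at low counts are high on both axes.

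Whether the change between the days differed between the arms was tested as an interaction. It was called at 2532 of 18748 loci (13.5%), where the control arm changed more upward at 1354 (7.22%) and more downward at 1178 (6.28%; quasi-likelihood test, 21 libraries). Without replicate 1 of the mature day 10 deficit group the number was 4943 (26.4%), of which 2694 (14.4%) went more upward and 2249 (12%) more downward. The number rested on single libraries: it was 770 and 1420 without replicate 1 or 2 of the day 8 control group, 778 and 1042 without replicate 2 or 3 of the day 10 control group, 1100 and 840 without replicate 1 or 2 of the day 8 deficit group, and 4566 when replicate 3 of the day 10 deficit group was left out. A fit restricted to the 9 libraries of these groups gave 14, and one restricted to the same libraries less replicate 1 of the day 10 deficit group gave 4355.

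Replicate 1 of the mature day 10 deficit group was also placed between the 2 control days. Its level was nearer to the day 10 control mean than to the day 8 control mean at 577 of the 601 loci that rose at least 2-fold (96%) and at 378 of the 420 that fell (90%). In the other 22 libraries outside the comparison the share was 53.2% to 72.7% for the rises and 46% to 63.1% for the falls. The other 2 libraries of its own group had 69.7% and 72.7% for the rises and 63.1% and 62.1% for the falls. At these loci the library labelled deficit thus lay with the day 10 libraries labelled control, as it did over the whole profile.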

How the data were processed

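Polyadenylated RNA from 27 tomato leaf libraries was sequenced by a service provider as paired-end reads of 100 nt, per the labels' protocols. The authors deposited 1 table of whole numbers, read here as raw read counts per locus because library totals differed (14725924 to 19642202). DESeq2 is named in the submitters' processing notes with no version or role. The aligner, counting tool, genome build, annotation and use of strand are not given in the sources used here. Columns were matched to libraries by description and groups were read from titles.

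Tests were run with edgeR 4.0.16, on limma 3.58.1 and R 4.3.3. The filterByExpr function kept 18254 of 34688 loci in the 10 mature control libraries, with 99.96% of their counts. Sizes were scaled by TMM, with factors of 0.954 to 1.03. One coefficient per day group was fitted with robust dispersions, leaving 6 residual degrees of freedom, and contrasts were tested by quasi-likelihood F test with Benjamini-Hochberg adjustment at 0.05. The deficit and interaction contrasts used all 21 mature libraries. Standard errors were the fold change over the root of F. Printed CPM were scaled by TMM over 27 libraries, and log2 CPM had 2 counts added. Simulated counts with 200 loci changed 2-fold were used to check the test. Far more loci were called in the data, most with smaller changes, so the check does not cover that setting.

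Named loci were those with the 2 largest rises and falls among called loci whose days did not overlap and whose mean log2 CPM reached 3. The planned gene lists and marker checks were not run, since no locus could be paired with a name. The comparison, lists and tests were chosen with earlier results of these data known. Alternatives were other libraries in the fit, RLE and upper quartile scaling, DESeq2 1.42.0, other filters, thinned counts, a replicate block and leaving out each compared library. Limits on low counts cover counting error only.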

Additional observations from a re-analysis of the deposited data

Results flagged for a closer look

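The change between days 8 and 10 differed between the arms of mature leaf at 2532 loci in a direct test of that difference (edgeR's quasi-likelihood test, adjusted p below 0.05), and at 4943 without replicate 1 of the mature day 10 deficit group. All 4 named loci were among those with such a difference in the fit of 21 mature libraries, and none of them in the fit of only the compared libraries, where 14 loci were called. Differences below are the log2 fold change in the control arm minus that in the deficit arm. Solyc06g009140.3 had a difference of 1.64 (SE 0.36, adjusted p = 0.0106), and 1.37 (adjusted p = 0.000473) without that library. Solyc03g118810.1 had 1.38 (SE 0.41, adjusted p = 0.0378), and 1.81 (adjusted p = 2.14e-05) without it. Solyc03g078230.3 had -1.77 (SE 0.26, adjusted p = 0.000927), and -1.80 (adjusted p = 1.59e-05) without it. Solyc10g049580.2 had -1.95 (SE 0.53, adjusted p = 0.0264), and -1.50 (adjusted p = 0.0388) without it. In the fit of only the compared libraries the adjusted p was 0.156 for Solyc06g009140.3, 0.248 for Solyc03g118810.1, 0.0656 for Solyc03g078230.3 and 0.186 for Solyc10g049580.2, with the differences in the same directions. Leaving out single libraries of days 8 and 10 other than those labelled deficit at day 10 also ended the call at Solyc03g118810.1 and Solyc10g049580.2 (adjusted p of 0.0515 to 0.12), and leaving out replicate 1 of the day 8 control group ended it at Solyc06g009140.3 (adjusted p = 0.0586). With replicate 1 of the day 10 deficit group left out, the fit of only the compared libraries called all 4 differences. The adjusted p was then 4e-05 for Solyc06g009140.3, 5.4e-06 for Solyc03g118810.1, 5.34e-05 for Solyc03g078230.3 and 0.000695 for Solyc10g049580.2. That setting was added after the data were seen. The 4 loci were chosen by the control part of these differences. No group held 4 or more libraries, so single libraries were not screened within groups.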

How the results depend on the processing

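The number of loci called between days 8 and 10 in the control arm stayed within 1.5 times of 7459 under 13 of 16 alternatives. It was 4590 with all 27 libraries in the fit and 7877 when replicate 1 of the mature day 10 deficit group was left out of that fit. It was 3634 with the 21 mature libraries and 7757 with that library left out, 2 settings added after the data were seen. Without each compared library in turn it was 4844 to 6079. Loci called at least 2-fold numbered 613 with the 21 mature libraries, 1050 with that library left out of them, and 803 to 1141 without each compared library. The number for days 4 to 5 was 3672 with all 27 libraries and 7214 with that library left out. In the deficit arm the number was 1 when the fit held only the compared libraries and 3228 when these were fitted less replicate 1 of day 10 (a setting added after the data were seen). It was 786 to 4305 without each library in the larger fit. The interaction was called at 14 loci when the fit held only the compared libraries, at 4355 with these less replicate 1 of the mature day 10 deficit group (a setting added after the data were seen), and at 770 to 4943 without each library. The change of the 4 named loci between days 8 and 10 in the control arm kept its direction and its call under all 16 alternatives each, with a highest adjusted p of 0.0342 at Solyc10g049580.2. Their difference between the arms kept its direction under all 16 and lost its call under 2 for Solyc06g009140.3, 7 for Solyc03g118810.1, 1 for Solyc03g078230.3 and 7 for Solyc10g049580.2.

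Days 8 and 10 of the control arm share only replicate number 2, so no paired analysis of these 2 groups was possible. With a replicate block over the 10 control libraries, 7766 loci were called. Deviations of the 12 same-numbered pairs of libraries correlated at -0.00897 to 0.166, over 0.1 in 3. Pairs with different numbers ranged from -0.276 to 0.16. With 2 libraries per day, and with 13% of loci called at the lowest levels against 56.3% at log2 CPM of 6 to 8, changes at loci of few counts were less often detectable.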
